A study of Zea mays subsp. mays with 2 samples.

Results

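A nested antisense locus is a transcribed stretch whose start and end both fall inside a longer locus read from the other strand of the same chromosome. In the maize table analysed here, 871 of 37398 listed loci (2.33%) met this definition, and they lay in 704 hosts. The members were found from coordinates alone, without any expression value, and for each one the longest containing locus was kept as its host. The listed loci came from roots and shoots of the maize inbred line B73, taken apart from each other 14 days after germination and represented by 1 strand-specific polyA RNA library each. The labels name no mutation and no treatment for either organ, and they do not say how many plants went into a library. Neither organ could be checked against marker genes, because no listed locus carries a gene name.

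Antisense transcripts are RNAs copied from the strand opposite to another transcription unit, so part of their sequence is complementary to the RNA of the host. Natural antisense transcripts are widespread in plants, and some are known to act on the gene they overlap, by forming double-stranded RNA from which small RNAs are cut, by altering chromatin, or by interfering with polymerases moving in the opposite direction. A locus wholly inside another can also be an independent gene in an intron. The table gives only the outer limits of each locus, so exons, introns and coding potential of the members are not known here, and whether a member overlaps an exon of its host was not analysed.

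Levels are in FPKM, the number of sequenced fragments divided by the length of the transcript and scaled to the size of the library, as deposited by the authors. FPKM is a level per length, so nested locus and host can be set side by side within a library. Ratios of roots over shoots are given as log2((roots FPKM + 1)/(shoots FPKM + 1)), which understates differences of low loci, and a locus was called when it was at least 4-fold higher on this scale, with at least 1 FPKM in the higher organ. With 1 library per organ no difference has a replicate check, no test was possible, and the sequencing depth is unknown. In whole organs, fewer cells of a type and less RNA per cell cannot be told apart. Every listed locus, the 871 members included, reached at least 1 FPKM in at least 1 library, so nested transcripts below that level in both organs are outside the list.

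The nested loci were short and their hosts long. Containment allows no member to be longer than its host, and it favours short loci as members and long loci as hosts. The direction of this difference is therefore set by the definition. The median member spanned 548 bp, with quartiles of 278 and 1263 bp and extremes of 103 and 25206 bp, whereas the 704 hosts had a median span of 7176 bp, each counted once. The median of all listed loci lay between these, at 2443 bp. A member covered a median of 7.94% of its host. In 337 pairs (38.7%) the member covered less than 5% of the host, and in 46 pairs it covered at least 50%. The pair with the largest coverage lay on chromosome 2, where a minus-strand locus between 53844508 and 53845943 took up 94.9% of a plus-strand host between 53844493 and 53846005. That member had 5.88 FPKM in roots and 11.6 in shoots, and its host 17.1 FPKM in roots and 28.0 in shoots, so both loci were higher in shoots and the member was the lower locus in both organs. The longest member, a plus-strand locus on chromosome 7 between 4321797 and 4347002, lay in a minus-strand host between 4307074 and 4373816.

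Long loci held nested loci more often, about in proportion to the sequence they cover. Among listed loci of up to 2000 bp, 60 of 16347 (0.367%) held a nested antisense locus. The share was 3.18% of 5754 loci of 5001 to 10000 bp and 26.2% of 260 loci over 50000 bp. Counted per megabase of host span, the number of members was 4.70 in the shortest of these classes and 5.27 in the longest, with 3.80 to 5.97 in the classes between. Most hosts, 598 of 704, held a single member, while 106 held 2 to 6 members each and together accounted for 273 of the 871. Members of the same host are not independent of each other in any comparison with that host.

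The members were spread over all 10 chromosomes and over both strands. Of the listed plus-strand loci, 455 (2.41%) were nested, and of the minus-strand loci 416 (2.25%). By chromosome the share of listed loci that were nested ranged from 1.64% on chromosome 4 to 2.89% on chromosome 8. Of the members, 14 were hosts in their own right, with spans of 593 to 14157 bp, so that a smaller locus on the strand of the outer host lay inside them. A further division concerns the strand of the member itself: 68 members also lay wholly within another locus of their own strand, and 258 (29.6%) had a same-strand locus within 1000 bp.

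Along the host, members were less frequent near the 5′ end than near the 3′ end. The midpoint of the member lay at a median of 56.3% of the host span, counted from the host 5′ end. It fell in the third at the host 5′ end in 201 pairs (23.1%), in the third at the centre in 350 (40.2%) and in the third at the 3′ end in 320 (36.7%). The 10% of the host next to its 5′ end held 34 midpoints, and the 10% next to its 3′ end held 67. By the midpoint, 492 members (56.5%) were nearer to the host 3′ end and 379 nearer to the 5′ end. Because a midpoint cannot lie closer to an end than the member's own extent allows, position was also measured by free sequence alone. The free sequence on the 5′ side made up a median of 57.3% of that on both sides. In the same division, 224 members (25.7%) lay at the 5′ end, 300 (34.4%) at the centre and 347 (39.8%) at the 3′ end. The member came within 500 bp of the host 3′ end in 141 pairs (16.2%) and within 500 bp of the 5′ end in 86 (9.87%).

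**Figure D1:**
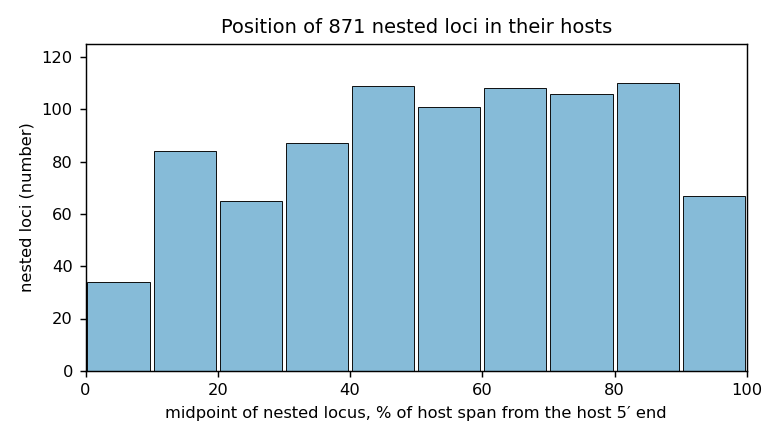
Number of nested antisense loci by the position of their midpoint, as a percentage of the host span from the host 5′ end, in 10 equal bins over 871 pairs. The bin at the host 5′ end holds 34 loci and the bin at the 3′ end 67, against 101 to 110 in the 5 bins between 40 and 90%.

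Loci close to the edge of the definition were counted as well. Of the members, 62 ended less than 100 bp from an end of the host, with medians of 2.54 FPKM in roots and 4.50 in shoots. In 60 further opposite-strand pairs the shorter locus stuck out of the longer one by 1 to 100 bp, so these pairs were not nested. Whether any of these shorter loci was a member through another host was not checked. These shorter loci had medians of 3.15 FPKM in roots and 3.10 in shoots.

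Nested loci stood at low levels. Their median was 2.15 FPKM in roots and 2.49 in shoots, against 12.9 FPKM in roots and 13.3 in shoots for their hosts. Over the 33827 listed loci without any opposite-strand overlap, the medians were 8.43 FPKM in roots and 9.07 in shoots. The 2010 loci that overlapped an opposite-strand locus only in part, and were neither member nor host, had medians of 7.88 FPKM in roots and 9.38 in shoots. These partly overlapping loci were longer than the members, with a median span of 3336 bp. Of the members, 224 (25.7%) reached 10 FPKM in either organ, against 54.4% of all listed loci, and 270 (31.0%) stayed below 2 FPKM in both organs, against 12.2% of all listed loci.

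Span differed between these groups too, and loci of 201 to 500 bp were low in general, with medians of 2.15 FPKM in roots and 2.76 in shoots where no opposite-strand locus overlapped. Within the same class of span the members had lower medians than loci without opposite-strand overlap. Between 501 and 2000 bp, 326 members had medians of 1.80 FPKM in roots and 2.15 in shoots, against 3.82 FPKM in roots and 4.30 in shoots for 9278 loci without opposite-strand overlap. Between 2001 and 5000 bp, 100 members had medians of 3.95 FPKM in roots and 4.67 in shoots, against 12.6 FPKM in roots and 13.3 in shoots for 11026 loci without overlap. The relative gap was smallest among the shortest loci, of 101 to 200 bp, where 115 members had 6.97 FPKM in roots and 6.64 in shoots and 1792 loci without overlap had 8.31 FPKM in roots and 8.66 in shoots. FPKM of loci this short depends strongly on the assumed fragment length. Against loci without overlap the direction was the same in all 5 span classes and in both organs, although the quartiles of both groups overlapped in each class. Against partly overlapping loci the direction depended on span. Between 201 and 500 bp, the members had medians of 1.70 FPKM in roots and 1.93 in shoots, above the 1.39 FPKM in roots and 1.17 in shoots of 171 partly overlapping loci. Between 101 and 200 bp, 18 partly overlapping loci had 10.07 FPKM in roots and 5.83 in shoots, so the members were lower in roots and higher in shoots. Between 501 and 2000 bp, 422 partly overlapping loci had 3.11 FPKM in roots and 3.41 in shoots, above the members, and in both longer classes the members were the lower group too. Low levels at short span were therefore not particular to nested loci.

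**Figure D2:**
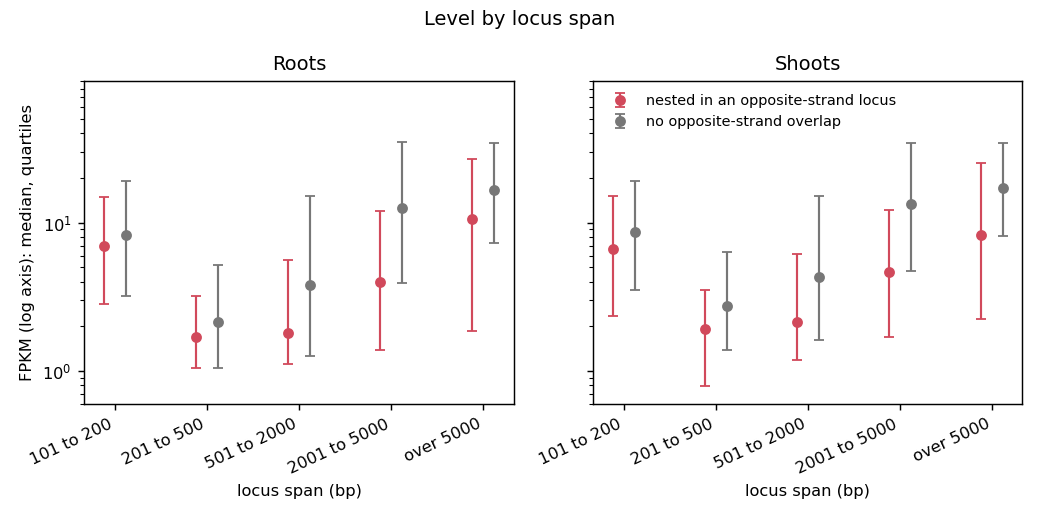
Median FPKM (points, log axis) with lower and upper quartiles (bars) by class of locus span, in roots (left) and shoots (right), for loci nested in an opposite-strand locus and for loci with no opposite-strand overlap. The nested loci have the lower median in each class, for instance 3.95 against 12.6 FPKM in roots at 2001 to 5000 bp.

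A smaller share of nested loci than of hosts was detected in both organs. At 1 FPKM or more, 535 members (61.4%) were detected in both organs, 170 (19.5%) in roots only and 166 (19.1%) in shoots only. Of the hosts, 91.5% were detected in both organs, 2.84% in roots only and 5.68% in shoots only. Over all listed loci, 81.0% were detected in both organs, 7.44% in roots only and 11.6% in shoots only. These groups differ in span. Between 201 and 500 bp, 47.9% of members were detected in both organs, against 60.6% of loci without opposite-strand overlap and 35.7% of partly overlapping loci. Between 501 and 2000 bp the shares were 62.9, 68.7 and 66.1%. Members had a lower share than loci without overlap in each span class, and than partly overlapping loci in each class except 201 to 500 bp. Many members stood close to the 1 FPKM limit, as the share below 2 FPKM shows, and a locus near the limit can fall on either side of it through counting error, which was not assessed at this unknown depth. In 153 pairs a member detected in roots only lay in a host detected in both organs, and in 143 pairs the same held for a member detected in shoots only. The roots listed 31 members at 0 and the shoots 18.

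Within a pair the nested locus was mostly the lower one, but the levels of the 2 loci were nearly unrelated. The member stood above its host in 195 pairs (22.4%) in roots and in 193 (22.2%) in shoots, of which 132 pairs were shared by both organs. With 1 FPKM added to both, the median log2 ratio of member over host was -1.61 in roots and -1.62 in shoots, with quartiles of -3.29 and -0.19 in roots and of -3.25 and -0.23 in shoots. At least 10-fold differences were found in both directions. The member was at least 10-fold below its host in 210 pairs in roots and in 211 in shoots, and at least 10-fold above it in 26 pairs in each organ. Across the 871 pairs, the rank correlation between member and host level was 0.069 in roots and 0.0093 in shoots. This describes pairs within 1 library each, which share depth and scaling and, in part, hosts.

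**Figure D3:**
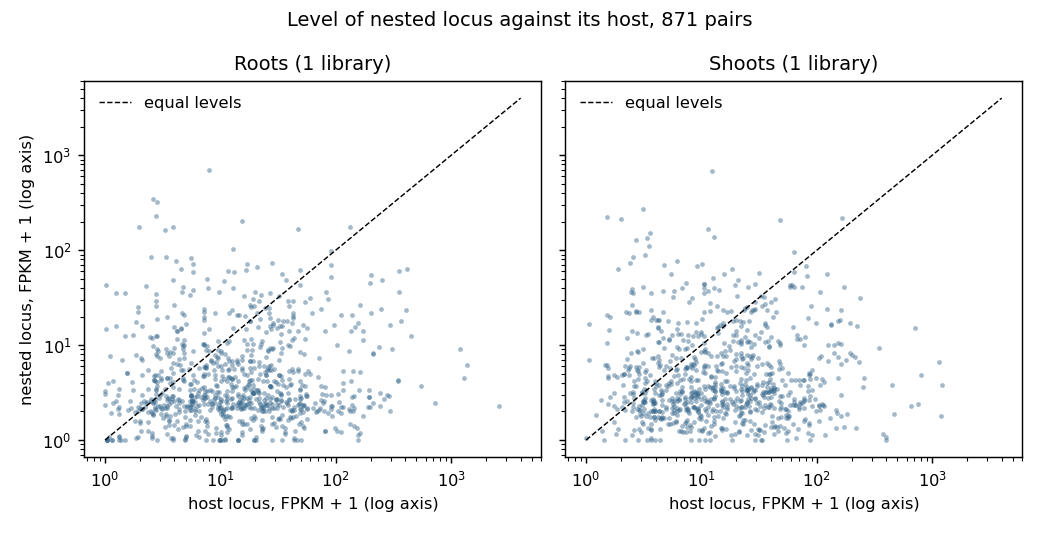
Level of each nested locus (vertical) against its host (horizontal), as FPKM + 1 on log axes, in the root library (left) and the shoot library (right). Each point is 1 of 871 pairs and the dashed line marks equal levels; 195 points lie above it in roots and 193 in shoots.

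Median member levels differed little between abundant and weak hosts, in groups not matched for member span. Every member had also reached 1 FPKM in an organ to be listed, which narrows the range of low levels. Where the host reached 100 FPKM or more in its higher organ, 98 members with a median span of 346.5 bp had medians of 1.85 FPKM in roots and 2.77 in shoots. Where it stayed under 5 FPKM, 191 members with a median span of 704 bp had medians of 2.42 FPKM in roots and 2.72 in shoots. In the most abundant hosts the members accordingly amounted to a median of 1.45% of the host level in roots and 2.41% in shoots. The lowest 10% of these pairs stood at or below 0.199% in roots and 0.172% in shoots. How completely the strand-specific preparation kept the strands apart was not measured, so what part of the low member levels in abundant hosts could be reads of the host assigned to the wrong strand was not tested.

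The largest excesses of a host over its member were ranked among pairs with both loci at 5 FPKM or more in the organ compared. The first was found on chromosome 5, in roots. The plus-strand member, 247 bp between 5433080 and 5433326, had 5.22 FPKM in roots and 2.76 in shoots. Its minus-strand host, between 5432904 and 5435840, had 1384 FPKM in roots and 1221 in shoots. The member was 265-fold below the host in roots and 442-fold in shoots, where the member was under 5 FPKM. In the next pair, on chromosome 3, a 144 bp plus-strand member between 215471860 and 215472003 was listed at 0 in roots and had 5.57 FPKM in shoots. Its minus-strand host, between 215466579 and 215473931, had 13.3 FPKM in roots and 1135 in shoots, so both loci of this pair were the higher in shoots. Another pair on chromosome 3 held a 439 bp plus-strand member between 58903306 and 58903744, with 8.15 FPKM in roots and 3.85 in shoots. Its minus-strand host, between 58902915 and 58905606, had 1199 FPKM in roots and 799 in shoots. All of these members were under 500 bp and each host carried 1135 FPKM or more in an organ.

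The most abundant nested loci lay in hosts of various levels. Of 15 members that reached 100 FPKM in an organ, 8 (53.3%) lay in hosts below 10 FPKM in both organs, against 36.4% of all 871 pairs. Standing above the host in both organs, as 12 of the 15 did, follows in part from choosing members of such high level. The highest was a plus-strand locus of 1229 bp on chromosome 8 between 39126474 and 39127702. It had 695 FPKM in roots and 683 in shoots, while its minus-strand host, between 39121584 and 39128476, had 6.98 FPKM in roots and 11.3 in shoots. This member lay 774 bp from the host 5′ end and was 99.6-fold above the host in roots and 60.5-fold in shoots, nearly equal between the organs itself.

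The other members among the 5 highest followed the same pattern with 1 exception. On chromosome 5, a plus-strand locus between 196103861 and 196107190 had 341 FPKM in roots and 126 in shoots, inside a 45099 bp host with 1.61 FPKM in roots and 1.69 in shoots. On chromosome 4, a minus-strand locus between 240836475 and 240840044 had 320 FPKM in roots and 222 in shoots and covered 63.2% of a host with 1.80 FPKM in roots and 0.51 in shoots. On chromosome 8, a minus-strand locus of 710 bp between 156772299 and 156773008 had 229 FPKM in roots and 271 in shoots, in a host with 1.79 FPKM in roots and 2.12 in shoots. In these pairs the host, not the member, was the locus with the low level. The exception lay on chromosome 5 between 188284174 and 188285076 on the plus strand, with 176 FPKM in roots and 219 in shoots, in a 46745 bp host of similar level, with 132 FPKM in roots and 164 in shoots. Both loci of that pair were higher in shoots by the same log2 ratio of -0.31.

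Among pairs with both loci at 5 FPKM or more in the organ compared, the chromosome 8 pair described above had the largest excess of a member. The next largest were found on chromosomes 8 and 3. The first was a plus-strand locus between 118560623 and 118561666 with 204 FPKM in roots and 168 in shoots. It covered 0.810% of a minus-strand host between 118529045 and 118657868 that had 14.5 FPKM in roots and 10.5 in shoots. The second was a plus-strand locus between 168301136 and 168302031 with 70.3 FPKM in roots and 76.3 in shoots. It started 75 bp inside the 3′ end of its minus-strand host, which had 4.81 FPKM in roots and 5.12 in shoots. All 3 members of this group had similar levels in the 2 organs.

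Between the organs, nested loci were called about as often as listed loci in general. At least 4-fold higher levels in roots were found for 28 members (3.21%), against 3.95% of all listed loci, and at least 4-fold higher levels in shoots for 59 members (6.77%), against 7.55%. With a pseudocount of 0.1 FPKM the order turned round, with 11.5% of members called in roots against 7.24% of all listed loci, and 14.5% of members in shoots against 12.7% of all listed loci. A difference between members and other loci in either direction can therefore not be read from these shares. The median log2 ratio of the members was -0.0046 with quartiles of -0.69 and 0.63, and over all listed loci it was 0.06 with quartiles of -0.56 and 0.54.

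Short members contributed many of the calls. Of the 28 called in roots, 12 spanned at most 200 bp, and of the 59 called in shoots, 19 did. Among the 115 members of 101 to 200 bp, 10.4% were called in roots and 16.5% in shoots, whereas among the 290 members of 201 to 500 bp 1.38% were called in roots and 2.07% in shoots. Loci without opposite-strand overlap had 8.65% called in roots and 9.43% in shoots at 101 to 200 bp, and 2.24% in roots and 5.54% in shoots at 201 to 500 bp. Of the members called in roots, 6 were listed at 0 in shoots, and of those called in shoots, 9 were listed at 0 in roots. The members called in roots had a median of 15.98 FPKM there and 0.934 FPKM in shoots, and those called in shoots a median of 0.588 FPKM in roots and 16.1 in shoots.

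Over all 871 pairs, the host was within 4-fold between the organs in 89.3% and within 2-fold in 74.9%, and the shares for organ-biased members are read against these. Of the 28 members called in roots, 26 (92.9%) had a host within 4-fold and 20 (71.4%) a host within 2-fold, both near the shares over all pairs. Of the 59 called in shoots, 47 (79.7%) had a host within 4-fold and 33 (55.9%) within 2-fold, both below those shares. Hosts were called in 93 pairs, and in 79 of these (84.9%) the member was within 4-fold, against 784 of all 871 members (90.01%). Both loci were called in 14 pairs, in each of them in the same direction, 2 in roots and 12 in shoots, and no pair was called in opposite directions. The room for opposite calls was small. A host was called in roots in 30 pairs, and 6.77% of all members were called in shoots. A host was called in shoots in 63 pairs, and 3.21% of all members were called in roots. In 30 pairs whose host was called in roots, the median log2 ratio of the members was 0.88 and 2 members (6.67%) were called in roots. In 63 pairs whose host was called in shoots, that median was -0.76 and 12 members (19.0%) were called in shoots. In the 778 pairs whose host was within 4-fold, the median was -0.0029, with 3.34% of members called in roots and 6.04% in shoots. Members of biased hosts thus had medians on the side of their host, mostly without reaching 4-fold.

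**Figure D4:**
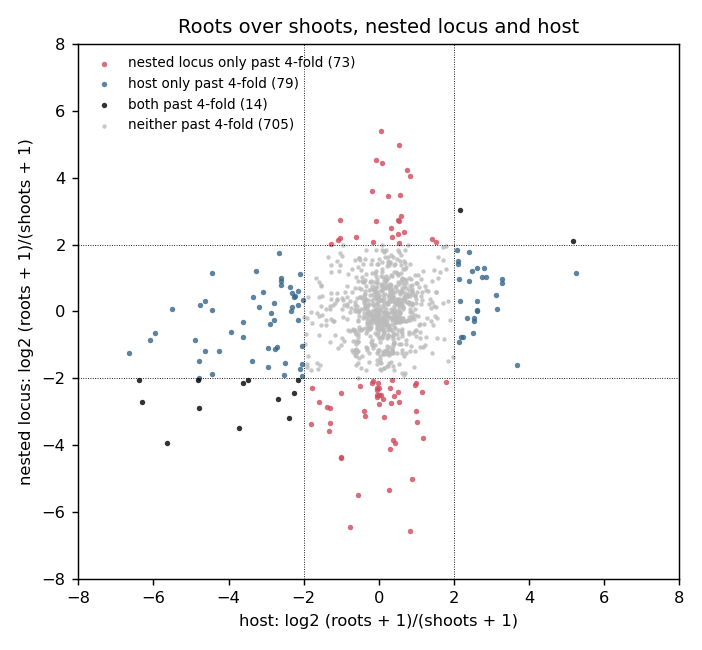
Log2 ratio of roots over shoots (FPKM + 1) of each nested locus (vertical) against that of its host (horizontal), with dotted lines at 4-fold. Colours mark 73 pairs in which the nested locus alone is past 4-fold, 79 in which the host alone is, 14 in which both are, all of them in the same direction, and 705 in which neither is.

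Across all pairs the log2 ratios of member and host had a rank correlation of 0.17. It was 0.11 to 0.12 in the 3 classes of hosts below 100 FPKM and 0.50 in the 98 pairs with hosts at 100 FPKM or more in the higher organ. By span of the member it was 0.44 in 115 pairs at 101 to 200 bp and 0.26 in 290 pairs at 201 to 500 bp. It was 0.03 in 326 pairs at 501 to 2000 bp, -0.02 in 100 pairs at 2001 to 5000 bp and -0.04 in 40 pairs over 5000 bp. The correlation was thus highest with abundant hosts and with short members, and the members of abundant hosts were shorter, with a median of 346.5 bp against 704 bp in hosts under 5 FPKM. All of these values come from the same 2 libraries, and pairs in 1 host share its ratio. The signs of the ratios of member and host were alike in 478 of the 871 pairs (54.9%).

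The largest root bias among members at 10 FPKM or more in the higher organ was that of P_XLOC_008898, a 103 bp plus-strand locus on chromosome 2 between 193505653 and 193505755. It had the lowest span of the members, and FPKM of loci this short depends strongly on the assumed fragment length. It had 41.3 FPKM in roots and was listed at 0 in shoots. Its minus-strand host, between 193505553 and 193506145, had 1.28 FPKM in roots and 1.19 in shoots, and is itself nested in a plus-strand locus between 193501445 and 193507266 with 13.7 FPKM in roots and 8.35 in shoots. This member therefore lies within a locus of its own strand as well. M_XLOC_017849, a 3612 bp minus-strand locus on chromosome 5 between 68651828 and 68655439, had 60.2 FPKM in roots and 0.96 in shoots, a log2 ratio of 4.97. It sat near the middle of a 261971 bp plus-strand host with 48.1 FPKM in roots and 32.7 in shoots, so the host was well above 1 FPKM in both organs and the member below it in shoots.

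The following root-biased members had hosts within 2-fold between the organs. On chromosome 7, a plus-strand locus of 4079 bp between 36540811 and 36544889 had 83.2 FPKM in roots and 2.66 in shoots, in a host with 1.49 FPKM in roots and 1.62 in shoots. On chromosome 4, a 121 bp plus-strand locus between 99866616 and 99866736 had 20.8 FPKM in roots and was listed at 0 in shoots, in an 82775 bp host with 3.62 FPKM in roots and 3.33 in shoots. On chromosome 6, a 440 bp plus-strand locus between 139453545 and 139453984 had 35.7 FPKM in roots and 0.95 in shoots, in a host with 8.72 FPKM in roots and 4.76 in shoots. The member was the higher locus of the pair in roots in all 5 of these pairs.

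The largest shoot bias was that of P_XLOC_004705, a plus-strand locus of 1146 bp on chromosome 10 between 5641861 and 5643006. It had 0.57 FPKM in roots and 149 in shoots, a log2 ratio of -6.58, while its minus-strand host, between 5641412 and 5647880, had 5.39 FPKM in roots and 2.59 in shoots. The host of this pair was thus the higher locus in roots and the lower one in shoots. M_XLOC_028835, a 951 bp minus-strand locus on chromosome 9 between 131571333 and 131572283, had 0.56 FPKM in roots and 137 in shoots, a log2 ratio of -6.46, in a host with 6.59 FPKM in roots and 11.8 in shoots. The order of this pair also differed between the organs.

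Among the next shoot-biased members, 2 shared an end with the 3′ end of their host. On chromosome 1, a plus-strand locus between 248150422 and 248152349 had 0.67 FPKM in roots and 66.5 in shoots and covered 62.0% of a minus-strand host that ends at the same base, with 10.05 FPKM in roots and 8.16 in shoots. On chromosome 4, a plus-strand locus between 12974975 and 12976310 had 0.35 FPKM in roots and 43.1 in shoots, in a host with 52.4 FPKM in roots and 27.9 in shoots that also ends at the same base. On chromosome 3, a 105 bp plus-strand locus between 29516016 and 29516120 was listed at 0 in roots and had 43.7 FPKM in shoots, in a host with 3.96 FPKM in roots and 6.34 in shoots. None of these hosts was past 4-fold between the organs.

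The pairs in which both loci were called in roots were 2 in number, and both lie on chromosome 5. In the first, a 119 bp minus-strand member between 21364759 and 21364877 had 29.5 FPKM in roots and 2.73 in shoots, and its host 84.3 FPKM in roots and 18.0 in shoots. In the second, a 195 bp plus-strand member between 210409708 and 210409902 had 3.28 FPKM in roots and was listed at 0 in shoots, and its host had 345 FPKM in roots and 8.59 in shoots. Both members were below 200 bp and below their hosts in both organs. Of the 12 pairs called in shoots at both loci, the member with the highest level lay on chromosome 2 between 5847406 and 5847518. It had 2.33 FPKM in roots and 29.2 in shoots, and its host 7.20 FPKM in roots and 42.2 in shoots. A 950 bp minus-strand member on chromosome 7, between 42216096 and 42217045, followed its host closely, with 4.80 FPKM in roots and 23.2 in shoots against 5.52 FPKM in roots and 28.1 in shoots. A 109 bp member on chromosome 5, between 8267594 and 8267702, had 3.31 FPKM in roots and 22.4 in shoots, and its host 33.4 FPKM in roots and 162 in shoots.

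The order of the 2 loci differed between the organs in 124 pairs, with the member above its host in roots only in 63 and in shoots only in 61. In 20 of these the difference was at least 2-fold each way with 1 FPKM added. In the longest member, on chromosome 7 as given above, the levels were 2.07 FPKM in roots and 1.47 in shoots. Its host had 0.01 FPKM in roots and 24.0 in shoots, so it was the host that differed between the organs. A similar pair, chosen after its values were seen, lay on chromosome 6. Its minus-strand member, between 118852656 and 118861518, had 11.8 FPKM in roots and 11.1 in shoots, and its plus-strand host, between 118852629 and 118867129, had 0.75 FPKM in roots and 78.3 in shoots. On chromosome 9, in a pair also chosen after its values were seen, both loci contributed. The member, between 20471111 and 20471649 on the plus strand, had 2.37 FPKM in roots and 13.6 in shoots, and the minus-strand host, between 20470860 and 20471877, had 20.3 FPKM in roots and 5.12 in shoots.

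In the 106 hosts with several members, the highest member stood a median of 2.17-fold above the lowest in roots and 2.13-fold in shoots, with 1 FPKM added. The members were within 2-fold of each other in 48 of these hosts in roots and in 50 in shoots, and within 4-fold in 73 in roots and 75 in shoots. The log2 ratios of roots over shoots spanned a median of 0.60 within a host, and in no host were members called in opposite directions. Opposite calls had little room to arise, since 784 of all 871 members (90.01%) were within 4-fold and 63 of the 106 hosts held 2 members. Members of different hosts were not compared in this way, so closeness particular to a shared host cannot be read from these values. The host with the most members, 6, was a 53690 bp plus-strand locus on chromosome 8 between 158308749 and 158362438, with 6.22 FPKM in roots and 9.55 in shoots. Its members spanned 115 to 14157 bp and ranged from 1.80 to 23.0 FPKM in roots and from 1.81 to 42.8 in shoots. Of the 6, 3 lay above the host in roots, and 1 of the 6, between 158350398 and 158350813, lay inside another member of the same strand. On chromosome 1, a 176502 bp plus-strand host between 283719970 and 283896471 had 89.5 FPKM in roots and 62.7 in shoots. Its 5 members lay in 2 clusters, with midpoints at 22.8 and 24.2% and at 79.0 to 81.2% of its length, and had 1.28 to 96.0 FPKM in roots and 1.49 to 94.9 in shoots.

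The longest listed locus of all was also among these hosts. It spans 537036 bp on the plus strand of chromosome 2, between 226962774 and 227499809, with 8.61 FPKM in roots and 7.10 in shoots, and held 5 members. One of them, between 227160534 and 227160693, had the smallest coverage of all pairs, 0.0298% of its host. It had 10.04 FPKM in roots and was listed at 0 in shoots, while the other 4 members had 1.13 to 6.37 FPKM in roots and 1.51 to 5.32 in shoots. Whether loci of this length are single transcription units or joined neighbours was not tested. Of all pairs, 226 (25.9%) had a host of more than 20000 bp and 63 (7.23%) one of more than 100000 bp. The median log2 ratio of member over host was -1.79 in roots and -1.86 in shoots for hosts of up to 5000 bp, and -1.78 in roots and -1.52 in shoots for hosts of 5001 to 20000 bp. It was -1.13 in roots and -1.33 in shoots for hosts of 20001 to 50000 bp, the smallest gap among these classes, and -1.28 in roots and -1.64 in shoots for hosts over 50000 bp.

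**Figure D5:**
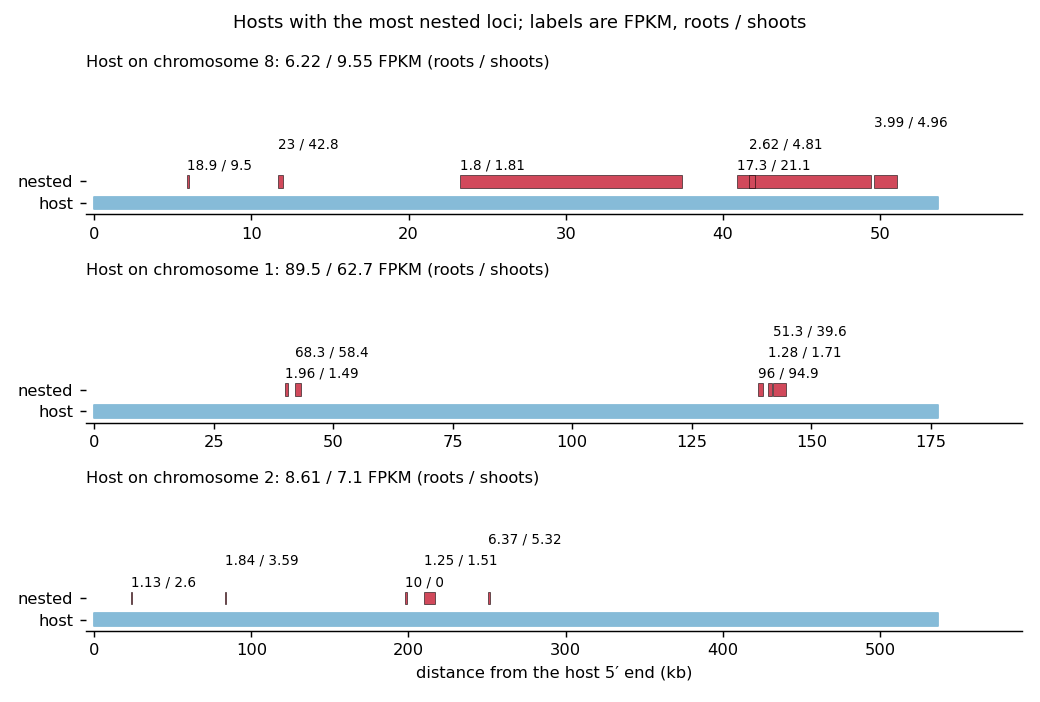
Maps of the 3 hosts with the most nested antisense loci, drawn to scale from the host 5′ end in kb, with the host as a blue bar and the nested loci as red bars above it (very short loci are widened to stay visible). Numbers give FPKM in roots and in shoots; the nested loci range from 1.80 to 23.0 FPKM in roots in the host on chromosome 8 and from 1.28 to 96.0 FPKM in that on chromosome 1.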

How the data were processed

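Polyadenylated RNA of roots and shoots was sequenced as directional single-end libraries, 1 per organ, per the labels' protocols. The authors deposited 1 table of FPKM values with positions on B73 RefGen_v2, per the file headers. TopHat, Cufflinks and Cuffdiff are named in the submitters' processing notes; no version or setting is recorded in the labels. Depth is unknown, so no interval or detection limit is given. Plus- and minus-strand loci carry separate prefixes. FPKM of short loci depends on the assumed fragment length. None of the identifiers matched the RefSeq table at hand (0 of 49888 genes, assembly Zm-B73-REFERENCE-NAM-5.0), a different build, so its coordinates were left aside. Sequences were not used here.

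From the table, loci were parsed into chromosome, strand, start and end, with span as end minus start plus 1, and nested pairs were found by full containment, keeping the longest host (8 members had several). Organs were compared as log2 ratios of roots over shoots with a pseudocount of 1 FPKM, and loci past 4-fold with 1 FPKM or more in the higher organ were called. Named pairs were those with extreme levels, ratios, coverage or numbers of members; pairs outside that rule are marked. The members, lists and rules were chosen with earlier results of these data known. Functions were tested on simulated data. Alternatives covered pseudocount, fold, detection level, scaling, host, span and containment. Python 3.11.15, pandas 2.3.3 and NumPy 2.4.6 were used.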

Additional observations from a re-analysis of the deposited data

How the results depend on the processing

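Of 43 values under other settings, 27 stayed close to those reported and 16 moved. Only the medians of member over host and the rank correlations could change sign, and none did. The order of members against all listed loci, which is not among these values, turned round with a pseudocount of 0.1 FPKM and at 2-fold. Close means within 1.5 times for counts and within a 95% sampling interval over pairs for medians and correlations, which treats pairs as independent although some share a host. Requiring both loci of a pair at 5 FPKM or more, each in its higher organ, left 270 pairs, with a rank correlation of log2 ratios of 0.25. A detection level of 5 FPKM left 196 members detected in both organs. Members called in roots and in shoots numbered 100 and 126 with a pseudocount of 0.1 FPKM, 9 and 17 with 5 FPKM, 135 and 168 at 2-fold, and 10 and 20 at 8-fold; at 2-fold these were 15.5% of the members in roots and 19.3% in shoots, against 12.9% of all listed loci in roots and 17.1% in shoots. Without members under 200 bp, 16 were called in roots. The median log2 ratio of member over host was -2.01 in roots and -2.06 in shoots with 0.1 FPKM added, and -0.94 in roots and -0.94 in shoots with 5 FPKM added. These values move by construction, with the threshold, the shrinkage of low loci or the pairs left out. The rank correlation was 0.11 in hosts under 100 FPKM and 0.12 in members of at least 200 bp, settings chosen after seeing the data. No paired analysis was possible because each organ has 1 library, which also precludes leaving a library out. Depth is unknown, which limits statements on low members, and most members are low.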
